A study of Homo sapiens with 24 samples.

Results

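The comparison described here set MCF10A cells that received an oligonucleotide against miR-671-5p (called si-miR-671) against cells given a non-targeting control oligonucleotide (control), before EGF and after 30 min of EGF. MCF10A is an immortal, non-tumorigenic line of human mammary epithelium. It was chosen as the 4 si-miR-671 and 4 control arrays at 0 and 30 min, 8 of the 24 arrays of the study, with time as a block. The other 16 arrays held the same transfections at 60 and 120 min and an oligonucleotide directed at miR-20a (si-miR-20a) at all 4 times.

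Each of the 4 groups used here (control at 0 min, control at 30 min, si-miR-671 at 0 min and si-miR-671 at 30 min) had 2 arrays, which the labels call biological replicates. All cells shared the line, the transfection reagent Oligofectamine and a growth medium with insulin, cholera toxin, hydrocortisone, horse serum and EGF. The EGF dose of the stimulation, any starvation before it and the time from transfection to RNA extraction are unstated in the sources used here, and so are batches and scan dates. Whether replicates came from separate transfections was not given either, so p-values measure the spread between these arrays, which may be technical. The labels call the reagents siRNA oligonucleotides directed at the microRNAs. Affymetrix Human Gene 1.0 ST arrays read longer transcripts, so the level of mature miR-671-5p was not measured and the effect of the oligonucleotide on it was not checked.

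A microRNA guides an Argonaute protein to messenger RNAs that pair with its seed, the bases near its 5′ end, and this lowers their stability or translation. Epidermal growth factor (EGF) activates the receptor EGFR and MAP kinases, and within minutes raises a set of immediate early transcription factors such as FOS and EGR1. Breast epithelial cells in culture also make chemokines, acute phase proteins and antimicrobial peptides, many of them under the transcription factor NF-kappaB, and a basement membrane matrix.

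The mature sequences are shown because the reagents compared here were directed at these microRNAs, whose seeds differ. They come from RefSeq (GRCh38.p14), are written 5′ to 3′ and have the seed, bases 2 to 8, in capitals.
hsa-miR-671-5p: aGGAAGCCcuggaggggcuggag
hsa-miR-20a-5p: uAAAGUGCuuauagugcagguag
The miR-671-5p sequence lies on the plus strand at chr7:151238449-151238471 and that of miR-20a-5p on the plus strand at chr13:91351072-91351094. Of the 2370 mature human microRNAs in the table, 0 others share the seed of miR-671-5p and 7 others share that of miR-20a-5p.

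Values are the deposited log2 levels of probe sets (Affymetrix transcript clusters), so a difference of 1 is a doubling. Arrays had nearly equal distributions, with medians between 6.56 and 6.57 and lower quartiles between 4.95 and 4.97. Across probe sets (which are no independent replicates) the 2 arrays of a group correlated at 0.982 to 0.990, and their SD per group was 0.184 to 0.250, widest for si-miR-671 at 30 min. Basal epithelial markers were at a high level on all 8 arrays, with the keratin KRT5 between 12.53 and 12.67 and KRT14 between 11.76 and 11.90. The leukocyte marker PTPRC lay between 3.76 and 4.54, under the lower quartile of every array, and HBB between 4.82 and 5.40. The mean over the 6 measured basal markers ran from 11.1 to 11.2 on control arrays and from 11.0 to 11.1 on si-miR-671 arrays, and the mean over the 9 blood and endothelial markers from 6.56 to 6.63 and from 6.45 to 6.63.

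Cells with si-miR-671 had lower levels of 11 of 16 acute phase, complement and antimicrobial genes and 8 of 22 cytokines and chemokines, among them SAA1, CXCL10, CCL2, CFB and S100A9, and of the matrix and adhesion genes SULF1 and CDH11. With 1 array left out, 8 to 10 and 4 to 6 members of these lists were called lower. The call of CXCL10 held in 1 of the 8 such fits and that of CDH11 in 6. Higher levels were seen with si-miR-671 for SCEL and TGM1, which build the cornified envelope of squamous cells, and for the transcription factor FOXA1. These were 2 of 23 cornified envelope genes (median 0.003) and 1 of 10 luminal markers. The call of SCEL ended whichever array was left out. By smaller amounts, 6 of 28 genes of DNA replication and 5 of 24 of mitosis were called higher, of which 0 to 3 and 0 or 1 were called with 1 array left out. In limma's fit, which took si-miR-671 minus control over both times with time as a block, 442 of 19460 probe sets passed an adjusted p of 0.05, or 2.27%. Of these, 203 were higher with si-miR-671 (1.04% of those tested) and 239 lower (1.23%). The changes were small. The median size of a called difference was 0.41, 77 calls reached 1.5-fold (15 higher and 62 lower), and 10 reached 2-fold. The median over all probe sets was -0.0088. In bulk RNA, fewer cells of a type and less RNA per cell cannot be told apart.

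By gene, with 1 probe set for each, 426 of 18417 were called (2.31%), 197 higher (1.07%) and 229 lower (1.24%). In all 426 the si-miR-671 and control arrays did not overlap at 0 min nor at 30 min, and they went the same way at both, which held for 3314 of all genes tested (18.0%). In 413 of them the 4 si-miR-671 arrays did not overlap the 4 control arrays with both times pooled, against 2359 of all genes (12.8%). The number of calls fell whichever array was left out, in fits that also had 4 instead of 5 residual degrees of freedom. With 1 array left out, 68 to 191 probe sets were called: 88 and 80 without control replicate 1 or 2 at 0 min, 78 and 136 without control replicate 1 or 2 at 30 min, 78 and 96 without si-miR-671 replicate 1 or 2 at 0 min, and 191 and 68 without si-miR-671 replicate 1 or 2 at 30 min. In all 8 of these fits 57 of the 426 genes were called, 21 higher and 36 lower, and 213 were called in none. Below, each gene is described with what leaving out an array did to its call.

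**Figure D1:**
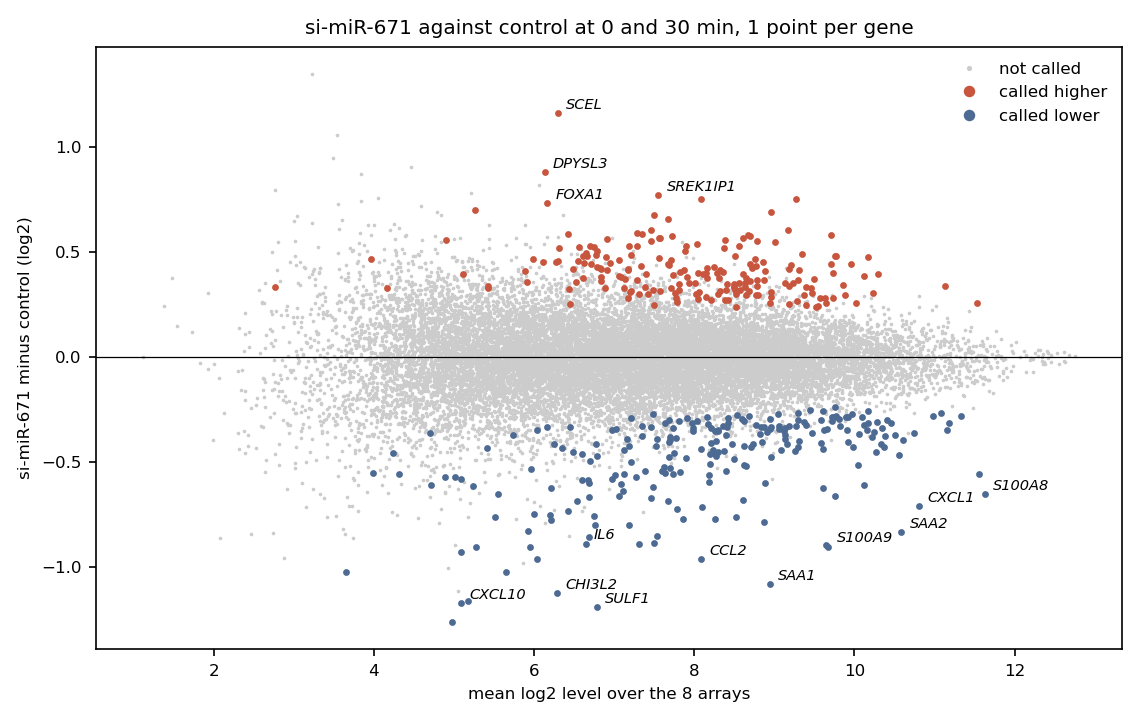
Each point is a gene, with its mean log2 level over the 8 arrays on the x axis and si-miR-671 minus control (log2) on the y axis; red and blue points passed limma's adjusted p of 0.05. The 229 genes called lower reach further from 0 than the 197 called higher. The labelled acute phase, chemokine and calprotectin genes lie at medium and high levels, except CXCL10, which lies at a low level.

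The group with the lowest median difference was that of complement, acute phase and antimicrobial genes, which epithelia secrete against microbes. Of its 16 measured members 11 fell and 0 rose (1.24% of all genes were called lower), with a median difference of -0.62 against -0.009 over all genes. With 1 array left out, 8 to 10 of them were called lower. Lists and members were chosen with earlier results of these data known. The list counts here and below therefore describe the lists and do not test them. The serum amyloid genes are acute phase proteins. SAA1 was at 9.49 and 9.59 in control and 8.38 and 8.63 with si-miR-671 at 0 min, and 9.45 and 9.42 in control and 8.19 and 8.42 with si-miR-671 at 30 min. All 4 si-miR-671 arrays lay well below all 4 control arrays, and the fall was 2.12-fold (log2 difference -1.08 ± 0.08, limma adjusted p = 0.00538). Its neighbour SAA2 read 11.09 and 11.02 in control and 10.16 and 10.22 with si-miR-671 at 0 min, and 10.94 and 10.95 in control and 10.17 and 10.13 with si-miR-671 at 30 min, again without overlap and by nearly the same amount at both times (log2 difference -0.83 ± 0.047, limma adjusted p = 0.00382). SAA1, SAA2 and the pseudogene SAA3P (-0.68, adjusted p = 0.00828 by limma) are close copies whose probes may share signal, so how much each contributes is uncertain.

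CFB, factor B of the alternative complement pathway, was at 10.19 and 10.09 in control and 9.24 and 9.18 with si-miR-671 at 0 min, and 10.06 and 10.03 in control and 9.25 and 9.12 with si-miR-671 at 30 min. Replicates lay close together while the groups stood apart by -0.89 ± 0.055 on the log2 scale, or 1.86-fold (limma adjusted p = 0.00382). The classical pathway proteases C1R (log2 difference -0.61, adjusted p = 0.0059) and C1S (-0.62, adjusted p = 0.00712) fell as well in the same limma fit, and C3, the central component, fell by less (-0.35, adjusted p = 0.015). The inhibitors CD55 (0.11, adjusted p = 0.285) and CD59 (-0.12, adjusted p = 0.27), which shield cells from complement, did not pass the test. The group thus held both secreted components that fell and membrane inhibitors that were not called.

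S100A8 and S100A9 form calprotectin, a metal-binding antimicrobial complex. S100A9 read 10.23 and 10.03 in control and 9.16 and 9.24 with si-miR-671 at 0 min, and 10.22 and 10.01 in control and 9.38 and 9.10 with si-miR-671 at 30 min, with every si-miR-671 array below every control array (log2 difference -0.90 ± 0.089, limma adjusted p = 0.00712). S100A8, at 11.95 and 12.01 in control and 11.34 and 11.34 with si-miR-671 at 0 min, and 11.98 and 11.88 in control and 11.32 and 11.20 with si-miR-671 at 30 min, showed the same order with a smaller difference of -0.65 ± 0.052 (limma adjusted p = 0.0059). The elastase inhibitor PI3 also fell (-0.52, adjusted p = 0.00653 by limma). For SAA1, SAA2, CFB, C1R, C1S, S100A8, S100A9 and PI3, and for SAA3P, which is not a member of the list, the call held whichever of the 8 arrays was left out. The call was less stable for 3 members. That of lactoferrin, LTF (-0.93, limma adjusted p = 0.0442), held only without control replicate 2 at 30 min (adjusted p 0.0279 to 0.14 over the 8 fits). That of C3 held only without si-miR-671 replicate 1 at 30 min (adjusted p 0.048 to 0.0713). That of the siderophore binder LCN2 (-0.55, limma adjusted p = 0.0177) held only without control replicate 2 at 0 or 30 min (adjusted p 0.0473 to 0.0714). LTF read 4.26 and 4.51 with si-miR-671 at 0 min and 5.04 and 4.67 at 30 min. All but the 5.04 lay under the lower quartile of the arrays, so the size of its fall is uncertain.

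Among 22 measured cytokines and chemokines, 8 fell and 0 rose (1.24% and 1.07% of all genes). The median difference was -0.31, and 4 to 6 were called lower with 1 array left out. CXCL1, a chemokine that draws neutrophils, was at 11.21 and 11.13 in control and 10.43 and 10.50 with si-miR-671 at 0 min, and 11.14 and 11.17 in control and 10.43 and 10.44 with si-miR-671 at 30 min. The replicates lay close together in every group and the difference was -0.71 ± 0.045 (limma adjusted p = 0.00382), equal in size at both times (-0.70 at 0 min and -0.72 at 30 min). The monocyte chemokine CCL2 stood at 8.53 and 8.45 in control and 7.37 and 7.52 with si-miR-671 at 0 min, and 8.69 and 8.60 in control and 7.92 and 7.63 with si-miR-671 at 30 min, a 1.95-fold fall (log2 difference -0.96 ± 0.084, limma adjusted p = 0.00635). The macrophage growth factor CSF1 fell by a log2 difference of -0.68 (limma adjusted p = 0.00653) and the granulocyte growth factor CSF3 by -0.66 (limma adjusted p = 0.0256).

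The cytokine IL6 had higher values at 30 min in both transfections. No array had the time without EGF, so EGF and time cannot be told apart here or below. IL6 was at 6.70 and 6.68 in control and 5.71 and 5.56 with si-miR-671 at 0 min, and 7.48 and 7.48 in control and 6.84 and 6.68 with si-miR-671 at 30 min. At each time both si-miR-671 arrays lay below both controls, while the si-miR-671 arrays at 30 min reached the level of control at 0 min. The difference averaged over times was -0.89 ± 0.086 (limma adjusted p = 0.00712), with -1.06 at 0 min and -0.72 at 30 min, and these did not differ after adjustment (unadjusted p = 0.0391, limma adjusted p = 1.0). CXCL10, a chemokine induced by interferon, had the largest difference of the list, -1.17 ± 0.17 (limma adjusted p = 0.0238), at a low level and with wider replicates: it read 6.08 and 5.40 in control and 4.70 and 4.35 with si-miR-671 at 0 min, and 5.76 and 5.45 in control and 4.64 and 4.31 with si-miR-671 at 30 min. The arrays did not overlap within or across times, and the si-miR-671 values lay under the lower quartile of the arrays. Its call held only without control replicate 2 at 0 min (adjusted p 0.0489 to 0.0864 over the 8 fits), whereas those of CXCL1, CCL2, CSF1 and IL6 held without any 1 array.

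CXCL2 (-0.43, adjusted p = 0.0198) and CXCL3 (-0.67, adjusted p = 0.0316) completed the calls of the list by limma, and as close copies of CXCL1 they may share probe signal with it. Leaving out 1 array ended the call of CXCL3 in all 8 fits (adjusted p 0.0645 to 0.109), and those of CXCL2 and CSF3 held only without si-miR-671 replicate 1 at 30 min (adjusted p 0.0353 to 0.0819 and 0.0493 to 0.0904). The alarmins IL1A (-0.15, adjusted p = 0.268) and IL1B (0.021, adjusted p = 0.887) and the chemokine CXCL8 (-0.58, adjusted p = 0.0599) did not pass limma's test, nor did CCL20 (-0.36, adjusted p = 0.114).

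NF-kappaB is held inactive by inhibitors whose genes it switches on in turn. Of 12 measured subunits and feedback genes, 3 fell and 0 rose (1.24% and 1.07% of all genes), with a median difference of -0.25. With 1 array left out, 0 or 1 was called lower (RELB, without control replicate 2 at 0 min). The 3 were the subunit RELB (-0.42, adjusted p = 0.0284 by limma), the deubiquitinase TNFAIP3 (-0.29, adjusted p = 0.0282) and its partner TNIP1 (-0.35, adjusted p = 0.0184). TNFAIP3 was at 9.81 and 9.76 in control and 9.49 and 9.52 with si-miR-671 at 0 min, and 10.32 and 10.34 in control and 10.07 and 10.00 with si-miR-671 at 30 min, so its level was higher at 30 min in both transfections and a like gap between them stood at both times. The inhibitor NFKBIA missed the threshold (-0.36, adjusted p = 0.0599), and the subunits NFKB1 (-0.10, adjusted p = 0.407), REL (-0.047, adjusted p = 0.727) and RELA (-0.058, adjusted p = 0.719) were further from it.

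Promoters of these cytokine and chemokine genes are shown because the called members with a promoter in the table share a motif. The called genes CCL2, CSF1 and CSF3 had no promoter there and were not searched. The window ran from 250 bases before to 50 after the start site in RefSeq (GRCh38.p14), was found for 14239 of the 18417 genes, and was searched on both strands, at every listed start site of a gene, for GGGANNTTCC, an NF-kappaB motif. The 80-base stretches below, 5′ to 3′ along the gene, end 41 bases before the start site, with the matches in capitals (overlapping ones are joined).
CXCL1: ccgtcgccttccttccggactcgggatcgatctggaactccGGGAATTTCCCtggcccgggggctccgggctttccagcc
CXCL2: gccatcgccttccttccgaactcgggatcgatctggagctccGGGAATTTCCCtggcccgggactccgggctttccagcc
CXCL3: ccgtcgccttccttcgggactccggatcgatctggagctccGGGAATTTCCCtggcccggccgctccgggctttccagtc
IL6: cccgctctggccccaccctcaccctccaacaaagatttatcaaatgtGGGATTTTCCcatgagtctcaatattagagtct
They lie at chr4:73869273-73869352 on the plus strand, chr4:74099236-74099315 and chr4:74038730-74038809 on the minus strand, and chr7:22727080-22727159 on the plus strand. The CXCL1, CXCL2 and CXCL3 stretches are near copies of each other, so they are not independent examples. All 5 called cytokine genes with a promoter in the table (CXCL1, CXCL2, CXCL3, CXCL10 and IL6) held a match, and so did 8 of all 17 list members with one, among them CXCL5 (-0.02) and CXCL6 (-0.11), which were not called. Over all 14239 promoters the share was 2.11%, over those of genes called lower 8.15% (15 of 184) and over those of genes called higher 0.685% (1 of 146). In the complement, acute phase and antimicrobial list only LCN2 held a match, 1 of 9 promoters and 1 of 6 of its called members. A match describes these letters and not a site in use.

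Of 30 measured genes of the extracellular matrix and its enzymes, 7 fell and 1 rose (1.24% and 1.07% of all genes), with a median of -0.20. SULF1, which removes sulfate groups from heparan sulfate outside the cell, was at 7.50 and 7.31 in control and 5.85 and 6.35 with si-miR-671 at 0 min, and 7.45 and 7.25 in control and 6.23 and 6.32 with si-miR-671 at 30 min. The si-miR-671 arrays lay clear of the control arrays at both times, and the fall was 2.28-fold (log2 difference -1.19 ± 0.12, limma adjusted p = 0.00843), a call that held without any 1 array. Its relative SULF2 (-0.41, adjusted p = 0.0132), the collagen cross-linking enzyme LOX (-0.60, adjusted p = 0.0125), fibrillin, FBN1 (-0.54, adjusted p = 0.0129), fibronectin, FN1 (-0.27, adjusted p = 0.0285), tenascin, TNC (-0.28, adjusted p = 0.0383), and the laminin chain LAMB3 (-0.28, adjusted p = 0.0459) fell by less in the same limma fit. The protease ADAMTS1 rose (0.56, adjusted p = 0.0226), with all control arrays under the lower quartile of the arrays. With 1 array left out, 1 to 4 were called lower and 0 or 1 higher: LOX kept its call without control replicate 1 or 2 or si-miR-671 replicate 1 at 30 min, FBN1 without these or control replicate 1 at 0 min, SULF2 without control replicate 2 or si-miR-671 replicate 1 at 30 min, ADAMTS1 only without control replicate 2 at 30 min, and FN1, TNC and LAMB3 in none of the 8 fits (adjusted p up to 0.111, 0.135 and 0.147).

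Adhesion genes showed the same mixture: 6 of 20 fell and 1 rose (1.24% and 1.07% of all genes), with a median of -0.12. Without 1 array, 0 to 3 were called lower and 0 or 1 higher. CDH11, a cadherin typical of mesenchymal cells, was at 7.28 and 6.95 in control and 6.43 and 6.16 with si-miR-671 at 0 min, and 7.18 and 7.03 in control and 6.22 and 6.21 with si-miR-671 at 30 min. The groups stood clear of each other at both times (log2 difference -0.86 ± 0.095, limma adjusted p = 0.0112), and the call was lost only without control replicate 1 or si-miR-671 replicate 2 at 30 min (adjusted p up to 0.0577). The leukocyte ligand ICAM1 (-0.57, adjusted p = 0.0253) and the integrin chains ITGB6 (-0.38, adjusted p = 0.0155), ITGA5 (-0.33, adjusted p = 0.0184), ITGAV (-0.31, adjusted p = 0.0442) and ITGB8 (-0.28, adjusted p = 0.0339) fell in limma's fit, and the epithelial adhesion molecule EPCAM rose (0.35, adjusted p = 0.0304). The calls of ICAM1, ITGB6 and EPCAM held only without si-miR-671 replicate 1 at 30 min. Those of ITGA5, ITGAV and ITGB8 held in none of the 8 fits. The mesenchymal intermediate filament VIM did not pass the test (-0.057, adjusted p = 0.625), and of 15 mesenchymal markers 1 fell (FN1) and 0 rose. The mean over those 15 markers ran from 7.42 to 7.46 on control arrays and from 7.22 to 7.39 on si-miR-671 arrays. Its part in the falls of matrix genes was not tested.

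Several of the largest falls belonged to none of the lists. The vanins are pantetheinases, enzymes of coenzyme A recycling, encoded side by side. VNN2 was at 5.86 and 5.65 in control and 4.76 and 4.41 with si-miR-671 at 0 min, and 5.84 and 5.66 in control and 4.78 and 4.41 with si-miR-671 at 30 min, a low level but with no overlap (log2 difference -1.16 ± 0.12, limma adjusted p = 0.00778). The pseudogene VNN3P was at 5.89 and 5.60 in control and 4.48 and 4.41 with si-miR-671 at 0 min, and 5.42 and 5.51 in control and 4.38 and 4.10 with si-miR-671 at 30 min (log2 difference -1.26 ± 0.089, limma adjusted p = 0.00538). For VNN2 and VNN3P all si-miR-671 values lay under the lower quartile of the arrays, so these levels may be near background and the size of the falls is uncertain. The related VNN1, at a higher level, fell too (-0.76, adjusted p = 0.00538), although the probes of such related genes may share signal. CHI3L2, a chitinase-like protein without enzyme activity, read 6.89 and 6.84 in control and 5.54 and 5.81 with si-miR-671 at 0 min, and 6.95 and 6.72 in control and 5.90 and 5.65 with si-miR-671 at 30 min, a 2.18-fold fall (log2 difference -1.13 ± 0.095, limma adjusted p = 0.0059). These 4 calls held without any 1 array.

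The rest of the 14 largest falls were COXFA4L3 (-1.02, adjusted p = 0.0148 by limma), a small mitochondrial protein related to a respiratory chain subunit, SERTAD4 (-0.96, adjusted p = 0.0189), MAMDC2 (-0.90, adjusted p = 0.0113), the hyaluronan-binding protein TNFAIP6 (-0.90, adjusted p = 0.0359) and the olfactory receptor OR2C3 (-1.02, adjusted p = 0.0461). OR2C3 lay under the lower quartile of the arrays, at 4.26 and 4.15 in control and 3.57 and 3.08 with si-miR-671 at 0 min, and 4.49 and 3.77 in control and 3.13 and 2.80 with si-miR-671 at 30 min. Leaving out 1 array ended the calls of OR2C3 and TNFAIP6 in all 8 fits (adjusted p 0.0736 to 0.135 and 0.0596 to 0.125), that of SERTAD4 in all but the fit without control replicate 1 at 0 min, and that of MAMDC2 in the fits without control replicate 2 at 0 min, control replicate 1 at 30 min or si-miR-671 replicate 2 at 30 min. The call of COXFA4L3 held only without control replicate 2 at 30 min, si-miR-671 replicate 2 at 0 min or si-miR-671 replicate 1 at 30 min. MAMDC2 read 4.54 and 4.88 with si-miR-671 at 0 min and 5.03 and 4.82 at 30 min. All but the 5.03 lay under the lower quartile of the arrays, so the size of its fall is uncertain.

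**Figure D2:**
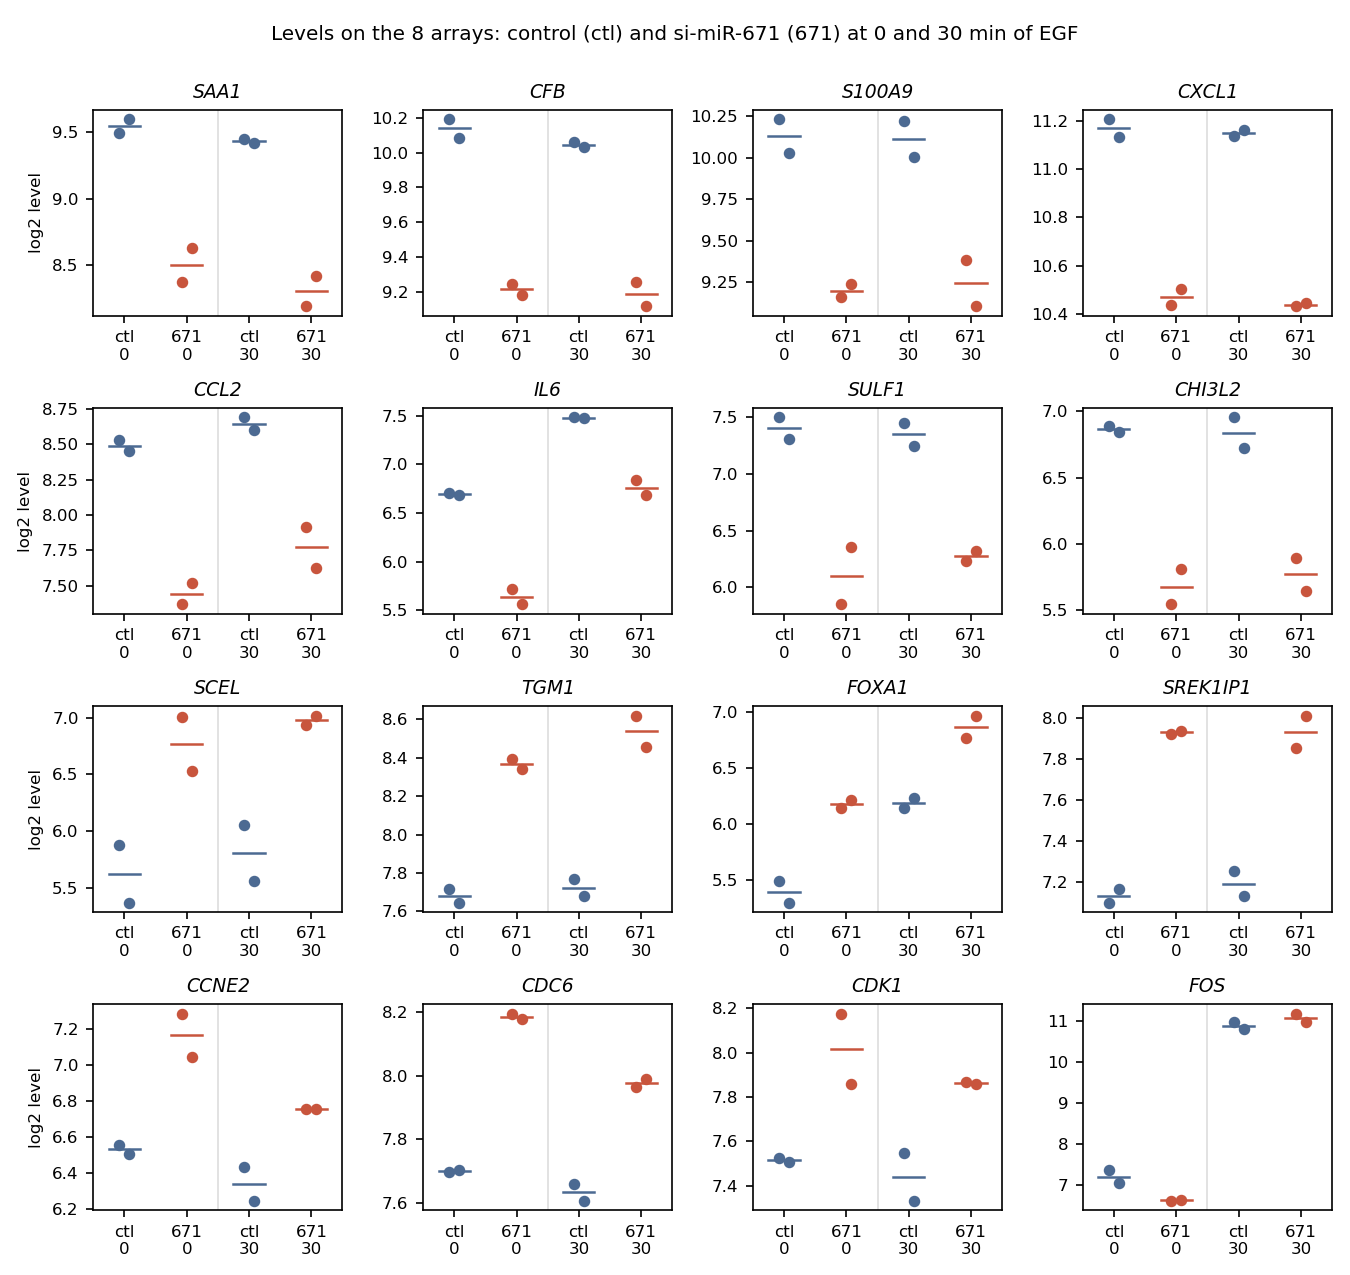
Log2 levels of 16 genes on the 8 arrays, with control in blue and si-miR-671 in red at 0 min (left of each panel) and 30 min (right); dots are arrays, bars the mean of 2, and each panel has its own y axis. SAA1, CFB, S100A9, CXCL1, CCL2, IL6, SULF1 and CHI3L2 are lower with si-miR-671 at both times, SCEL to CDK1 are higher, and FOS is higher at 30 min than at 0 min in both transfections.

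The largest rise was that of SCEL, sciellin, a precursor of the cornified envelope that lines the surface of squamous epithelia. It was at 5.88 and 5.37 in control and 7.01 and 6.53 with si-miR-671 at 0 min, and 6.05 and 5.56 in control and 6.94 and 7.02 with si-miR-671 at 30 min. The arrays did not overlap, but replicates were wide apart in 3 of the 4 groups, and the call (1.16 ± 0.17, 2.23-fold, limma adjusted p = 0.0213) was lost whichever array was left out (adjusted p 0.0544 to 0.0832). TGM1, the transglutaminase that cross-links that envelope, read 7.72 and 7.65 in control and 8.39 and 8.34 with si-miR-671 at 0 min, and 7.77 and 7.68 in control and 8.62 and 8.46 with si-miR-671 at 30 min. Its replicates were close and its rise of 0.75 ± 0.061 (limma adjusted p = 0.0059) held in all 8 fits. These were the 2 members called of 23 measured cornified envelope genes, with 0 called lower (1.07% of all genes were called higher and 1.24% lower). The median was 0.0031, and 1 was called with any 1 array left out. Involucrin, IVL (-0.25, adjusted p = 0.317), and the keratin KRT10 (-0.09, adjusted p = 0.454) did not pass, and the small proline-rich protein SPRR1B missed the threshold (0.48, adjusted p = 0.0522).

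FOXA1, a transcription factor that opens chromatin in luminal breast cells, was at 5.50 and 5.30 in control and 6.15 and 6.22 with si-miR-671 at 0 min, and 6.14 and 6.23 in control and 6.76 and 6.97 with si-miR-671 at 30 min. Values were higher at 30 min and, at each time, with si-miR-671, and the si-miR-671 arrays at 0 min equalled the controls at 30 min (difference averaged over times 0.73 ± 0.073, limma adjusted p = 0.00764). It was the only one of 10 measured luminal markers called in this comparison, with 0 lower (1.07% of all genes were called higher and 1.24% lower). ESR1 (0.025, adjusted p = 0.902) and the luminal keratins KRT8 (0.085) and KRT18 (-0.015) were not called, and 1 of 6 basal markers, LAMB3, fell.

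SREK1IP1, a protein that binds a splicing regulator, had close replicates: it was at 7.10 and 7.17 in control and 7.92 and 7.94 with si-miR-671 at 0 min, and 7.25 and 7.14 in control and 7.86 and 8.01 with si-miR-671 at 30 min, a 1.7-fold rise (log2 difference 0.77 ± 0.058, limma adjusted p = 0.00538). ALDH1A3, which makes retinoic acid, rose by 0.75 ± 0.06 (limma adjusted p = 0.0059), and GPRC5A, an orphan receptor induced by retinoic acid, by 0.69 ± 0.057 (limma adjusted p = 0.0059). SERPINB7 (0.68, adjusted p = 0.00604), a serine protease inhibitor of the epidermis, AMMECR1 (0.66, adjusted p = 0.0059), PLAC8 (0.60, adjusted p = 0.00712), C1orf116 (0.60, adjusted p = 0.00653) and POP5 (0.59, adjusted p = 0.00707), a subunit of ribonuclease P, followed in the same limma fit. All 8 of these genes, like FOXA1, kept their call without any 1 array. DPYSL3 (0.88, adjusted p = 0.0178) kept it only without control or si-miR-671 replicate 1 at 30 min, the annexin ANXA10 (0.70, adjusted p = 0.0282) only without the former, and the aldehyde oxidase AOX1 (0.59, adjusted p = 0.0116) without either control replicate at 0 min, control replicate 2 at 30 min or si-miR-671 replicate 1 at 30 min.

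A minority of cell cycle genes rose, by small amounts. Of 28 measured genes of the G1/S transition and DNA replication, 6 rose and 0 fell (1.07% of all genes were called higher), with a median difference of 0.25 and 24 above 0. CDC6, which loads the replicative helicase, was at 7.70 and 7.70 in control and 8.19 and 8.18 with si-miR-671 at 0 min, and 7.66 and 7.61 in control and 7.97 and 7.99 with si-miR-671 at 30 min. Its replicates lay close together and the groups did not overlap (log2 difference 0.41 ± 0.05, 1.33-fold, limma adjusted p = 0.0135). CCNE2, a cyclin that starts S phase, had the largest rise of the list: it was at 6.56 and 6.51 in control and 7.29 and 7.05 with si-miR-671 at 0 min, and 6.43 and 6.24 in control and 6.75 and 6.76 with si-miR-671 at 30 min (log2 difference 0.53 ± 0.082, limma adjusted p = 0.0282). The helicase subunits MCM5 (0.44, adjusted p = 0.0205) and MCM6 (0.38, adjusted p = 0.0289), the GINS subunit GINS1 (0.26, adjusted p = 0.0439) and the ribonucleotide reductase subunit RRM2 (0.28, adjusted p = 0.0426) completed the calls by limma. These calls were fragile: 0 to 3 remained with 1 array left out. That of CDC6 held only without control or si-miR-671 replicate 1 at 30 min (adjusted p 0.0353 to 0.0695 over the 8 fits). Those of MCM5 and MCM6 held only without the latter. Those of GINS1, RRM2 and CCNE2 held in none (CCNE2 adjusted p 0.053 to 0.0994).

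Of 24 measured mitosis genes, 5 rose and 0 fell (1.07% and 1.24% of all genes). All 24 differences were above 0 and the median was 0.25, where the median of all genes was -0.009. CDK1, the kinase that drives entry into mitosis, was at 7.52 and 7.51 in control and 8.18 and 7.86 with si-miR-671 at 0 min, and 7.55 and 7.33 in control and 7.87 and 7.86 with si-miR-671 at 30 min. The groups did not overlap although the si-miR-671 replicates at 0 min were apart (log2 difference 0.46 ± 0.085, limma adjusted p = 0.0442). The kinetochore proteins CENPE (0.44, adjusted p = 0.025) and NDC80 (0.41, adjusted p = 0.0273), the spindle checkpoint kinase TTK (0.42, adjusted p = 0.0316) and cyclin A, CCNA2 (0.31, adjusted p = 0.0291), also rose in limma's fit, and the proliferation marker MKI67 did not pass (0.26, adjusted p = 0.095). With 1 array left out, 0 or 1 of the 24 was called: CENPE held only without si-miR-671 replicate 1 at 30 min, and CDK1 (adjusted p 0.0747 to 0.14), NDC80, TTK and CCNA2 in none. None of 9 cell cycle inhibitors was called by limma, and CDKN1B was nearest (-0.38, adjusted p = 0.0591). Of 19 p53 targets, the death receptor TNFRSF10B fell (-0.37, adjusted p = 0.0129; held only without control replicate 2 or si-miR-671 replicate 1 at 30 min) and 0 rose.

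Promoters of a pair of these genes are shown because the lists share known cell cycle motifs. An E2F motif, TTTNNCGC, was in 18 of 24 promoters of the G1/S list and in 11.0% of all 14239, and TTTGAA, the cell cycle homology region, was in 13 of 20 of the mitosis list and in 15.7% of all, on either strand. Of the called genes with a promoter, 3 of 4 in the G1/S list held the first and 2 of 4 in the mitosis list the second. The stretches below run 5′ to 3′ along the gene, with matches in capitals and overlapping ones joined: 120 bases of MCM6 ending 41 bases before its start site, with 4 E2F matches, and the 100 bases before the second of the CDK1 start sites, with 2 TTTGAA matches.
MCM6: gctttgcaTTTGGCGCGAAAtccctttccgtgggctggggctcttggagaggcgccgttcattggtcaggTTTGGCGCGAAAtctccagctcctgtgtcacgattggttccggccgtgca
CDK1: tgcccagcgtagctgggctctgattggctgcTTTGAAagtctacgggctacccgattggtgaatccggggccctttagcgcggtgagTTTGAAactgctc
They lie at chr2:135876484-135876603 on the minus strand and chr10:60778378-60778477 on the plus strand (GRCh38.p14). The same length before the other CDK1 start site had 0 TTTGAA matches.

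**Figure D3:**
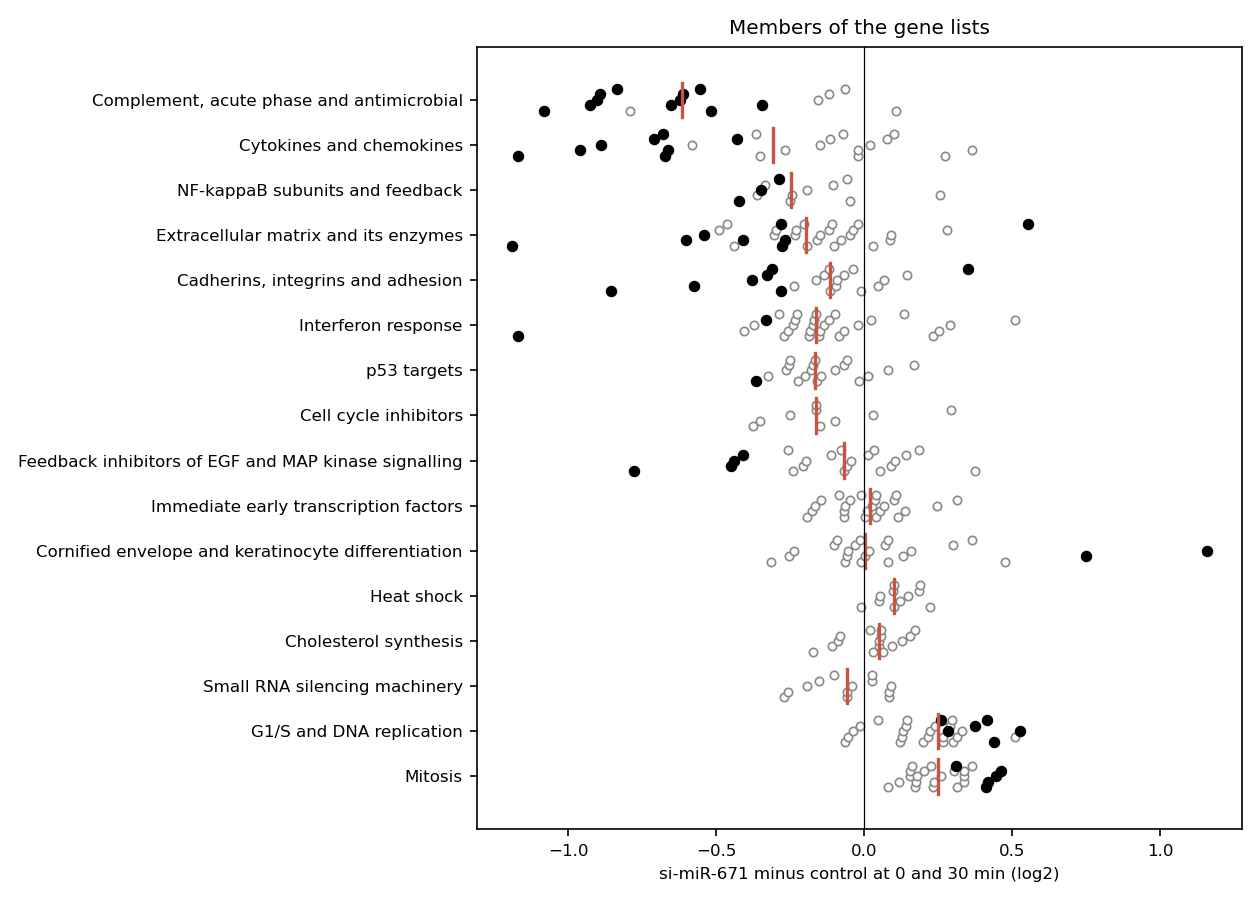
Each row is a gene list and each dot a measured member at its si-miR-671 minus control difference (log2); filled dots passed limma's adjusted p of 0.05 over all probe sets, and red bars are list medians. Complement and acute phase genes have the lowest median (-0.62), and the mitosis list has all 24 members above 0.

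Immediate early genes answer EGF within minutes. FOS was at 7.36 and 7.05 in control and 6.62 and 6.63 with si-miR-671 at 0 min, and 10.99 and 10.80 in control and 11.19 and 10.99 with si-miR-671 at 30 min, so both transfections had far higher values at 30 min than at 0 min. Averaged over times it was not called (-0.19, adjusted p = 0.623 by limma), with -0.58 at 0 min and 0.19 at 30 min. EGR1 (0.036, adjusted p = 0.878) read 7.95 and 7.84 in control and 7.80 and 7.67 with si-miR-671 at 0 min, and 10.94 and 10.99 in control and 11.17 and 11.22 with si-miR-671 at 30 min, with the same order of times. Of 24 measured immediate early genes, 0 were called by limma, with a median of 0.019 and differences from -0.19 to 0.31.

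Among 21 feedback inhibitors of EGF and MAP kinase signalling, 4 fell and 0 rose (1.24% and 1.07% of all genes), with a median of -0.067. SOCS3, an inhibitor of cytokine receptors, was at 6.50 and 6.25 in control and 5.29 and 5.35 with si-miR-671 at 0 min, and 6.92 and 6.75 in control and 6.35 and 6.32 with si-miR-671 at 30 min. The si-miR-671 arrays at 30 min came up to the controls at 0 min, and at each time they lay below the controls of that time (log2 difference -0.78 ± 0.13, limma adjusted p = 0.0316). LRIG1 (-0.45, adjusted p = 0.0166) and LRIG3 (-0.44, adjusted p = 0.028), membrane proteins of which LRIG1 restrains EGFR, and SPRY2 (-0.41, adjusted p = 0.0471) fell too by limma. With 1 array left out, 0 to 2 of the 4 were called: SOCS3 held only without control replicate 2 at 30 min and LRIG1 without it or si-miR-671 replicate 1 at 30 min. The calls of LRIG3 and SPRY2 held in none of the 8 fits. The EGFR ligand genes EREG (0.065, adjusted p = 0.814) and HBEGF (0.017, adjusted p = 0.958) and the receptors EGFR (-0.12, adjusted p = 0.342) and ERBB2 (-0.059, adjusted p = 0.721) did not pass. Of 11 ligands and receptors, NRG1, a ligand of other ERBB receptors, rose (0.48, adjusted p = 0.0335), a call lost whichever array was left out (adjusted p 0.0588 to 0.11).

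FOXM1 and SMARCB1, the measured transcripts reported as miR-671-5p targets in earlier literature, were not called in this comparison. Their list of 4 also held CHPF2, the miR-671 host gene, and 3 of the 4 were measured, CHPF2 among them. CHPF2, whose gene hosts miR-671, was at 8.71 and 8.49 in control and 8.36 and 8.38 with si-miR-671 at 0 min, and 8.49 and 8.67 in control and 8.36 and 8.32 with si-miR-671 at 30 min, lower on the si-miR-671 arrays at each time (log2 difference -0.23 ± 0.068, limma adjusted p = 0.146). The cell cycle transcription factor FOXM1 (0.26, adjusted p = 0.265) and the chromatin remodeller SMARCB1 (0.18, adjusted p = 0.233) had positive differences. MIR17HG, the primary transcript that holds miR-20a, stood at 0.30 ± 0.12 (limma adjusted p = 0.263). None of 13 genes of the small RNA silencing machinery was called (median -0.056), and none of 11 heat shock, 15 cholesterol synthesis, 18 hypoxia and glycolysis or 7 antigen presentation genes. Among 29 interferon response genes, CXCL10 and the immunoproteasome subunit PSMB9 (-0.33, adjusted p = 0.0273 by limma) fell and 0 rose, with a median of -0.16. Over all genes 1.24% were called lower and 1.07% higher. The call of PSMB9 held only without si-miR-671 replicate 1 at 30 min. Of the amino acid stress genes, the cystine importer SLC7A11 (0.44, adjusted p = 0.00778; held without any 1 array) and the asparagine synthetase ASNS (0.41, adjusted p = 0.021; held only without control replicate 2 at 30 min) rose and SDF2L1 fell (-0.38, adjusted p = 0.0426; held only without si-miR-671 replicate 1 at 30 min), 2 and 1 of 19 genes. SLC7A11 was also the only 1 of 16 NRF2 and redox genes called.

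The next comparison asked whether the difference between si-miR-671 and control was the same before EGF and after 30 min. No probe set was called for a difference between the times (0 of 19460, 0.0%, by limma), while 567 had an unadjusted p under 0.05. The smallest adjusted p was 1.0, so differences between the times were not detectable here, which does not show that the effects were equal. The smallest unadjusted p belonged to OR10H1 (difference 0.17 at 0 min and -1.60 at 30 min), OXGR1 (0.58 and -0.37) and ATP6V0D2 (0.53 and -0.85), an olfactory receptor, a metabolite receptor and a proton pump subunit at low levels. Taken alone, neither time gave a call by limma (0 probe sets at each, with 1889 at 0 min and 1977 at 30 min at an unadjusted p under 0.05), so the 442 calls rest on both times together.

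The early difference was then set against that at 60 and 120 min, from the other 8 arrays of the same transfections. For 138 of 19460 probe sets (0.709%) the late difference differed from the early one by limma, 40 with a more positive (0.206%) and 98 with a more negative late value (0.504%). The separate late comparison called 3306 probe sets (17.0%), but it is fitted with the spread of 16 arrays, so the counts are not matched. ACAT1, a mitochondrial thiolase of ketone body and isoleucine metabolism, had an early difference of -0.0054 ± 0.047 and a late one of -0.88 ± 0.054 (limma adjusted p = 0.00231 for late minus early). The histone genes H2AC21 (-0.014 early and 0.98 late, adjusted p = 0.00707) and H4C3 (-0.084 and 0.78, adjusted p = 0.00707) were likewise near 0 early and positive late in that limma fit. With all 24 arrays in the fit H2AC21 was not called (limma adjusted p = 0.0766).

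CFB, already lower early (-0.89), had a late difference of -1.79 (limma adjusted p = 0.00231), and SAA3P went from -0.68 to -1.90 (adjusted p = 0.00365). BTN3A1, a butyrophilin seen by T cells, went from -0.15 to -0.85 (limma adjusted p = 0.00762). These 6 calls held in all 16 fits without 1 array (adjusted p at most 0.0435). The count did not: 363 probe sets were called without si-miR-671 replicate 2 at 120 min, 229 without control replicate 1 at 120 min, and 9 to 76 without any other array. With the replicate number as a block it was 74. Of the complement and acute phase list, 4 of 16 were lower late than early and 0 higher (0.478% and 0.185% of all genes), and of the mitosis list 1 of 24 was lower (CENPE, 0.44 early and -0.10 late, adjusted p = 0.0337; called in 2 of 16 fits without 1 array) and 0 higher. Genes such as ALDH1A3 (0.75 early, 0.75 late) and TGM1 (0.75 and 0.87) were not called for a difference, with 95% intervals of late minus early of 0.0023 ± 0.20 and 0.12 ± 0.25.

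Finally the early si-miR-671 arrays were set against the 4 early si-miR-20a arrays. Each reagent's difference from control uses the same 4 control arrays, so the values are given side by side and only the direct difference is tested. By limma 218 of 19460 probe sets (1.12%) differed between the reagents, 143 higher (0.735%) and 75 lower (0.385%) with si-miR-671. This count rests on the arrays: without si-miR-20a replicate 1 at 0 min it was 1156, and without any 1 of the other 7 arrays it was 0 (2970 to 3771 at an unadjusted p under 0.05). With the replicate number as a block it was also 0 by limma (4248 at an unadjusted p under 0.05), so the calls given here and next all end in that fit. The acute phase genes lay below control with both reagents: SAA1 differed from control by -1.08 with si-miR-671 and -1.20 with si-miR-20a, CFB by -0.89 and -1.47, and S100A9 by -0.90 and -1.56. SREK1IP1 (0.77 and 0.67) and ALDH1A3 (0.75 and 0.82) stood higher with both.

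Some genes of the mitosis list went opposite ways with the reagents, while called genes of the G1/S list mostly did not. CCNA2 was 0.31 from control with si-miR-671 and -0.34 with si-miR-20a, a direct difference of 0.65 ± 0.06 (limma adjusted p = 0.0353), and CENPE was 0.44 and -0.43 (direct 0.88 ± 0.08, adjusted p = 0.0353). Of the 24 mitosis genes 4 were called higher against si-miR-20a and 0 lower (0.695% and 0.38% of all genes), 23 lay above 0 and the median was 0.30. Of the 28 G1/S genes 1 was called higher and 1 lower. MCM5 was 0.44 from control with si-miR-671 and 0.41 with si-miR-20a, CCNE2 0.53 and 0.35, and CDC6 0.41 and 0.26. RRM2 was 0.28 and 0.35, and MCM6 0.38 and 0.06. ZNFX1, an antiviral helicase, had the smallest p (-0.85 ± 0.052, limma adjusted p = 0.0098), with -0.14 from control by si-miR-671 and 0.71 by si-miR-20a. The TGF-beta receptor TGFBR2 (-0.56 ± 0.054, adjusted p = 0.0378) was lower with si-miR-671 than with si-miR-20a in that limma fit, and the exosome subunit EXOSC8 (0.61 ± 0.055, 0.0353) and ACAT1 (0.90 ± 0.071, 0.0318) were higher. For CCNA2, CENPE, ZNFX1, TGFBR2, EXOSC8 and ACAT1 the call held only without si-miR-20a replicate 1 at 0 min.

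**Figure D4:**
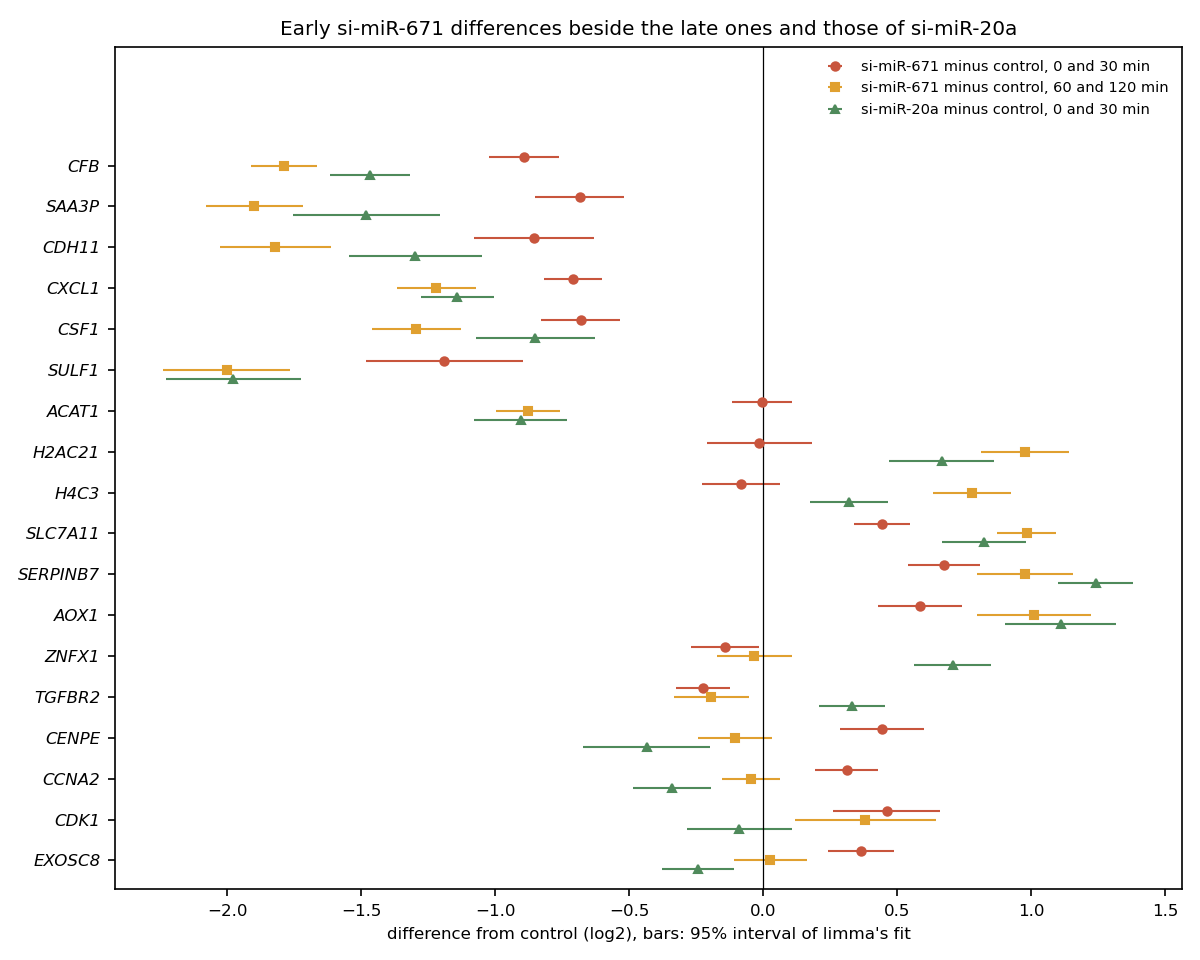
Differences from control (log2, x axis) with 95% intervals of limma's fits for 18 genes (y axis): si-miR-671 at 0 and 30 min (circles), si-miR-671 at 60 and 120 min (squares) and si-miR-20a at 0 and 30 min (triangles, same early controls as the circles). ACAT1, H2AC21 and H4C3 have circles near 0 and squares away from it, and CENPE and CCNA2 have circles above 0 and triangles below.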

How the data were processed

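The authors deposited 1 log2 value per probe set and array. Per the submitters' processing notes these came from Affymetrix Expression Console, with no version; summarisation and normalization are not given in the sources used here, and base 2 is inferred from their range. It covered 33297 probe sets, 0 values missing. The 19460 with exactly 1 gene symbol in the platform annotation were tested, 1754 with several and 12083 unlisted were left out, and no filter on low values was applied. Where a gene (18417 in all) had several, the probe set of highest mean level over the 24 arrays stood for it.

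The test was limma 3.58.1 in R 4.3.3, with transfection and time as terms, no replicate block, 5 residual and 2.04 prior degrees of freedom, and Benjamini-Hochberg adjustment over all 19460 probe sets. A call is an adjusted p under 0.05; ± is the fit's standard error, with 4 arrays per arm. The code of the fit was run on simulated data with independent noise on each array, which leaves out shared deviations of same-numbered arrays. An exact permutation test of 4 against 4 arrays within times has 36 relabelings and a smallest two-sided p of 0.0556, so it could not pass 0.05 and was not used. With 2 arrays per group, the number of arrays limits the precision. Interaction and late contrasts used 1 mean per group.

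Genes named are the 14 largest rises and 14 largest falls called without overlap at either time, and up to 5 called members per list. Also named are the reported targets with the host gene CHPF2, MIR17HG, and up to 6 by smallest p in each other comparison (3 where none passed). List members are named beside them where a group is described. Members and lists were chosen with earlier results of these data known. A protocol also names miR-212, which was not analysed here. Python 3.11.15, numpy 2.4.6, pandas 2.3.3 and matplotlib 3.10.9 made the tables and figures.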

Additional observations from a re-analysis of the deposited data

Results flagged for a closer look

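The si-miR-671 difference from control at 60 and 120 min differed from that at 0 and 30 min by a direct test of the change (limma, adjusted p under 0.05) for 138 probe sets. Among the genes named in the text, late minus early was negative for SAA3P (-1.21), CDH11 (-0.96), CFB (-0.89), ACAT1 (-0.87), SULF1 (-0.81), BTN3A1 (-0.71), LOX (-0.63), CSF1 (-0.61), SAA2 (-0.56), CENPE (-0.55) and CXCL1 (-0.51), and positive for OR2C3 (1.53), H2AC21 (0.99), H4C3 (0.86) and SLC7A11 (0.54). The calls of ACAT1, CFB, SAA3P, H2AC21, H4C3 and BTN3A1 held in all 16 fits without 1 array. Those of SLC7A11 held in 10, CDH11 in 9, OR2C3 in 6, LOX in 5, SAA2 in 4, SULF1 and CSF1 in 3, CENPE in 2 and CXCL1 in 1. In a fit of all 24 arrays the call ended for H2AC21 (limma adjusted p = 0.0766), SULF1 (0.121), CENPE (0.137), CSF1 (0.0688), SAA2 (0.0578) and LOX (0.0578).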

How the results depend on the processing

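Against the 442 calls of si-miR-671 against control (203 higher, 239 lower), each time taken alone gave 0 calls (0 higher, 0 lower and 0 at 1.5-fold, with 1889 and 1977 probe sets at an unadjusted p under 0.05). Fitting 4 group means gave 164 (69 higher, 95 lower), testing all 33297 probe sets 189 (85 and 104), a trended and robust prior 1159 (552 and 607), and testing only the 14595 probe sets of higher mean level 844 (426 and 418). Array weights gave 656 with 315 higher; si-miR-671 replicate 1 at 30 min had the lowest weight, 0.453, and replicate 2 the highest, 1.87. Quantile normalization gave 446 and all 24 arrays 546, with 346 of the 426 genes called in both. The causes of these moves were not tested, and some of the fits named also differ in their number of arrays or of probe sets. With 1 array left out the calls ran from 68 to 191 (27 to 77 higher, 41 to 114 lower, 43 to 68 at 1.5-fold), the late minus early calls from 9 to 363 (138 with all arrays), and those against si-miR-20a from 0 to 1156 (218 with all arrays).

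No label says that replicate numbers mark a shared batch or day. In 6 pairs of groups, replicate differences correlated at 0.012 to 0.382, with 5 above 0.1 and 1 below it, so same-numbered arrays partly deviated together. The main fit took no replicate block because the labels give no such pairing, and some counts depend on that choice. With a replicate block the main count was 459, with 365 of the 426 genes called in both, late minus early gave 74, and si-miR-671 against si-miR-20a gave 0 (4248 at an unadjusted p under 0.05), where the fit of all 24 arrays gave 1461. Of the 71 genes named from the main comparison, 0 changed direction in any setting. Call losses were 67 at each time alone, 30 with all probe sets, 27 with 4 group means, 5 with 24 arrays, 3 with the block and 25 to 44 with 1 array left out. CHPF2 passed the threshold with the trended and robust prior (adjusted p = 0.0438 by limma). The 30 min minus 0 min effect gave 0 calls by limma in every fit run.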

Other observations

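Some genes outside the lists were among the 57 called whichever array was left out; they were chosen after their values were seen. KIF20B (0.46, adjusted p = 0.00712 by limma) and RACGAP1 (0.57, adjusted p = 0.0059), proteins of cell division, and BRIP1 (0.48, adjusted p = 0.00814), a helicase of DNA repair, rose, unlike the members of the mitosis list, whose calls mostly ended without 1 array. RACGAP1 was at 8.39 and 8.38 in control and 8.94 and 8.91 with si-miR-671 at 0 min, and 8.31 and 8.23 in control and 8.88 and 8.85 with si-miR-671 at 30 min, with no overlap at either time. The WNT inhibitor DKK1 (0.48, adjusted p = 0.00828) and the synaptic scaffold gene HOMER1 (0.47, adjusted p = 0.00828) rose too. Among the falls were SOD2 (-0.56, adjusted p = 0.00712), the mitochondrial superoxide dismutase, the formyl peptide receptor FPR1 (-0.77, adjusted p = 0.00653), the lipid phosphatase PLPP3 (-0.85, adjusted p = 0.00653) and NNMT (-0.45, adjusted p = 0.00673), which methylates nicotinamide. SOD2 read 11.86 and 11.84 in control and 11.30 and 11.36 with si-miR-671 at 0 min, and 11.88 and 11.77 in control and 11.29 and 11.18 with si-miR-671 at 30 min, lower with si-miR-671 at both times.

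Of the 426 called genes, 17 had other probe sets, 20 in all. Of these 20, 15 went in the same direction and 11 were called in it, and 0 were called in the opposite direction.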
